A study of Homo sapiens with 16 samples.

Results

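The comparison described here is all-trans retinoic acid (RA) alone against its vehicle, DMSO, in SK-N-BE(2)C, an established MYCN-amplified human neuroblastoma line of the adrenergic type. It comprised 8 of the 16 samples of the study: 4 replicates given DMSO and 4 given 10 µM RA, chosen by the agent named in the sample labels. The other 8 samples, 4 with 1 µM palbociclib (PB, which blocks CDK4 and CDK6 and so holds cells before S phase) and 4 with PB and RA together (PB+RA), entered the same fit and served to measure the RA effect a further time. All samples are of 1 line, grown in DMEM/F12 with serum. The labels give no duration of treatment, and the paper describes treatment over several days for this experiment. The methods of the study describe replicates as passages of the line plated as separate experiments.

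RA is a derivative of vitamin A that enters the nucleus and binds retinoic acid receptors, which sit on DNA with a retinoid X receptor partner and switch from repression to activation of nearby genes. In the developing embryo it patterns the hindbrain, the neural crest and the sympathetic lineage, and in neuroblastoma it is used clinically to slow growth and induce differentiation. Genes with receptor sites in their own promoters, such as the RA-degrading enzymes and the receptor RARB, respond directly. The families described here, from secreted signals and matrix to channels and cytoskeleton, are those that lie beyond these known response genes.

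The DMSO samples held 24.5 to 31.6 M counts and the RA samples 22.2 to 26.5 M, so that a gene with no counts in a sample could still lie at up to 0.0949 to 0.135 CPM (counts scaled to the sample's total, the abbreviation used for all levels here). Of 27037 genes in the table, 15415 had enough counts to be tested. The first principal component of the 8 samples held 56.2% of the variance and separated RA from DMSO, and the second, with 20.1%, separated replicates 1 and 2 from replicates 3 and 4 in both groups. Markers of the adrenergic state summed to 8929 to 9312 CPM in DMSO and 8289 to 9480 CPM in RA, and all 13 were detected in both groups. Levels are CPM as mean ± SD over 4 samples, in the order DMSO then RA, and changes are log2 fold changes ± SE from a fit that pairs the replicate numbers. A gene was called, and is said to have risen or fallen, at an adjusted p (edgeR quasi-likelihood test, Benjamini-Hochberg over all tested genes) below 0.05 and a log2 change beyond 0.5 in either direction. In bulk samples such as these, fewer cells of a kind and less RNA per cell cannot be told apart.

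RA raised 2007 genes (13% of those tested) and lowered 509 (3.3%), so that 16.3% were called. Large changes were nearly all rises: 927 genes rose by more than 1 on the log2 scale and 111 fell by more than that, and 224 rose by more than 2 against 7 that fell. Small changes were more even. With the adjusted p alone and no fold minimum, 4094 genes lay higher (26.6%) and 3644 lower (23.6%), and the median over all tested genes was 0.01. Rises made up 79.8% of the calls, and 68.9% of them (1632 against 735) after a correction for GC content and gene length. The CPM of the groups did not overlap for 1506 of the 2007 risen genes (75.0%) and 360 of the 509 fallen ones (70.7%).

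Response in every RA sample was visible in 3 genes of the retinoid pathway itself. CYP26A1, which degrades RA, lay at 0.0355, 0.163, 0.158 and 0.0774 CPM in DMSO and 47.3, 75.1, 107 and 68.9 CPM in RA (log2 9.44 ± 0.45, adjusted p 4.05e-08). Its DMSO samples together held 12 counts, so the size of this fold rests on few counts. CYP26B1, a related enzyme, went from 1.34 ± 0.637 to 153 ± 35.6 CPM (log2 6.79 ± 0.17, adjusted p 4.03e-12), and RARB from 8.18 ± 2.35 to 28.2 ± 8.05 CPM (log2 1.77 ± 0.10, adjusted p 7.45e-11). No RA sample overlapped a DMSO sample in any of these genes. Of all 17 retinoid response genes tested 13 rose (76.5%), and of 15 HOX genes 10 rose (66.7%), against 13% of all genes. Matches to the receptor's site were looked up in the RefSeq promoters (GRCh38.p14, from 250 bases before to 50 bases after a gene's start), which covered 11316 of the 15415 tested genes (73.4%), too few for a comparison of shares. The search was for a direct repeat of the receptor half-site (AGGTCA in its consensus form, or with T in place of the inner G as AGTTCA, with G at the start as GGGTCA, or with both changes as GGTTCA, on either strand and with overlaps between matches counted) with 5 bases between the copies. It found a match in 29 of 27305 genes with a promoter (0.106%), in 3 of 1456 genes that rose and in 7 of 9510 that were not called. The 3 risen genes are shown with the half-sites in capitals. They lie at chr10:93073797-93073826 (CYP26A1, gene on the plus strand, half-sites read on the minus strand), chr3:25428204-25428233 (RARB, plus strand) and chr11:64990283-64990312 (BATF2, minus strand, printed 5′ to 3′ on the gene's strand).
CYP26A1: taaagaTGAACTttgggTGAACTaattgtc
RARB: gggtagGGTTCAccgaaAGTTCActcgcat
BATF2: aagcagAGTTCAtgtgaGGGTCAggaaggg

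BATF2, a basic leucine zipper factor known as an interferon-inducible gene, is named only because of this match and was chosen after its values were seen. It lay at 0.603, 0.897, 0.506 and 0.581 CPM in DMSO and 1.23, 1.42, 1.51 and 1.53 CPM in RA, a rise of 1.14 ± 0.23 (adjusted p 0.000297), and in replicates 1 and 2 alone it was not called (0.82, adjusted p 0.0526). With 2 bases between the copies, 5 of 11316 tested genes matched (0.044%). Of these 1 rose, ZBED6, a zinc finger repressor encoded within an intron of another gene (log2 0.73 ± 0.18, adjusted p 0.00245), also named after its values were seen. With 1 base between the copies 23 of 11316 tested genes matched (0.203%) and 0 of the 1456 risen ones did, and these counts are too small to compare. A match of letters is not evidence of binding, and no match says only that these letters were not in this window.

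**Figure D1:**
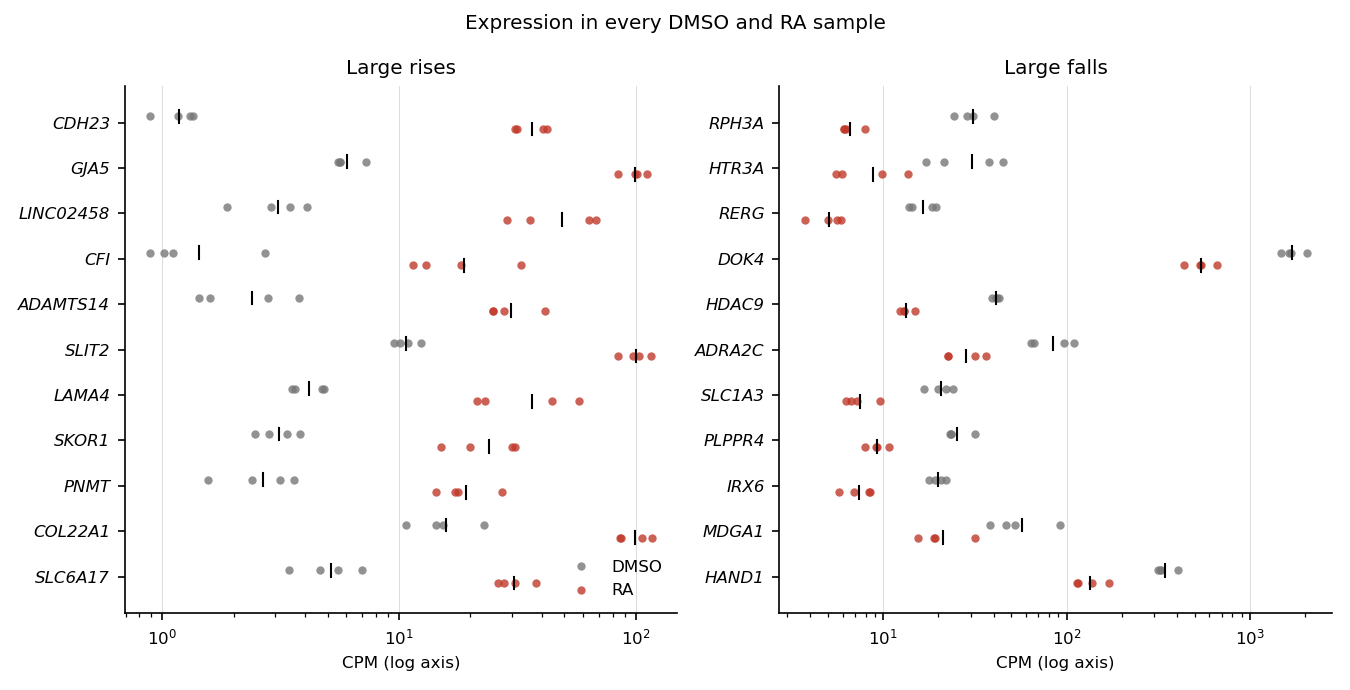
11 of the 12 largest rises (left) and 11 of the 12 largest falls (right), taken from called genes that averaged 10 CPM or more and whose groups did not overlap, with retinoid and HOX genes left out. Each point is 1 sample (grey DMSO, red RA, 4 each), the black ticks are group means and the axis is CPM on a log scale. CDH23, at the top, goes from 0.885 to 1.35 CPM in DMSO to 31.01 to 42.03 CPM in RA, and every red point of a rise lies to the right of every grey one, as the choice of genes required.

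Outside the retinoid and HOX genes, the largest rise among well expressed genes was that of CDH23, a cadherin known from the tip links of hair cells (chromosome 10, 73156677 to 73575704, GRCh37). It lay at 1.35, 1.304, 0.885 and 1.16 CPM in DMSO and 40.7, 31.01, 31.5 and 42.03 CPM in RA (log2 4.95 ± 0.13, adjusted p 1.76e-15). GJA5, the gap junction protein connexin 40 (chromosome 1, 147228332 to 147245466), came second, at 5.53, 7.26, 5.63 and 5.61 CPM in DMSO and 101, 112, 84.2 and 99.2 CPM in RA (log2 4.03 ± 0.07, adjusted p 2.45e-19). In both genes every RA sample lay far above every DMSO sample, though a lack of overlap was a condition for the choice of these genes. The other large rises spanned several functions. LINC02458, a long noncoding RNA, went from 3.08 ± 0.949 to 48.9 ± 19.6 CPM (log2 3.97 ± 0.13, adjusted p 2.68e-13). CFI, the complement protease factor I, lay at 0.886, 1.02, 1.11 and 2.71 CPM in DMSO and 11.5, 13.1, 18.3 and 32.7 CPM in RA (log2 3.74 ± 0.12, adjusted p 3.28e-15), and replicate 4 was the highest in both groups. SKOR1, a corepressor of the SKI family, went from 3.12 ± 0.602 to 23.98 ± 7.75 CPM (log2 2.90 ± 0.18, adjusted p 9.44e-09). SLC6A17, which loads neutral amino acids into synaptic vesicles, went from 5.14 ± 1.49 to 30.6 ± 5.17 CPM (log2 2.57 ± 0.10, adjusted p 4.55e-14).

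The largest falls were smaller on the log2 scale than the largest rises. RPH3A, the vesicle protein rabphilin (chromosome 12, 113008184 to 113336686), led them at 40.1, 28.5, 24.4 and 30.9 CPM in DMSO and 7.95, 6.11, 6.25 and 6.08 CPM in RA (log2 -2.23 ± 0.19, adjusted p 1.4e-06). HTR3A, a subunit of the ionotropic serotonin receptor, lay at 37.9, 45.2, 17.1 and 21.4 CPM in DMSO and 9.79, 13.7, 5.501 and 5.99 CPM in RA (log2 -1.80 ± 0.09, adjusted p 1.08e-12), and replicates 1 and 2 were above replicates 3 and 4 in both groups. RERG, a small GTPase related to RAS, went from 16.4 ± 2.804 to 5.03 ± 0.951 CPM (log2 -1.71 ± 0.11, adjusted p 9.81e-11). DOK4, an adaptor of receptor tyrosine kinases and the gene with the most counts among these falls, lay at 2041, 1468, 1634 and 1663 CPM in DMSO and 658, 436, 538 and 534 CPM in RA (log2 -1.66 ± 0.07, adjusted p 8.48e-12), with POLR2C overlapping it on the other strand, and the strand of counting was not stated. HDAC9, a class IIa histone deacetylase, went from 41.3 ± 1.47 to 13.3 ± 1.13 CPM (log2 -1.64 ± 0.08, adjusted p 1.31e-12). SLC1A3, a glutamate transporter best known from glia, went from 20.6 ± 3.104 to 7.42 ± 1.49 CPM (log2 -1.49 ± 0.12, adjusted p 2.89e-09). PLPPR4, a membrane protein of neurons related to lipid phosphatases, went from 25.4 ± 4.29 to 9.26 ± 1.14 CPM (log2 -1.45 ± 0.12, adjusted p 7.52e-08), and MDGA1, which binds neuroligins, from 57.2 ± 23.6 to 21.3 ± 7.13 CPM (log2 -1.42 ± 0.15, adjusted p 1.34e-05).

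**Figure D2:**
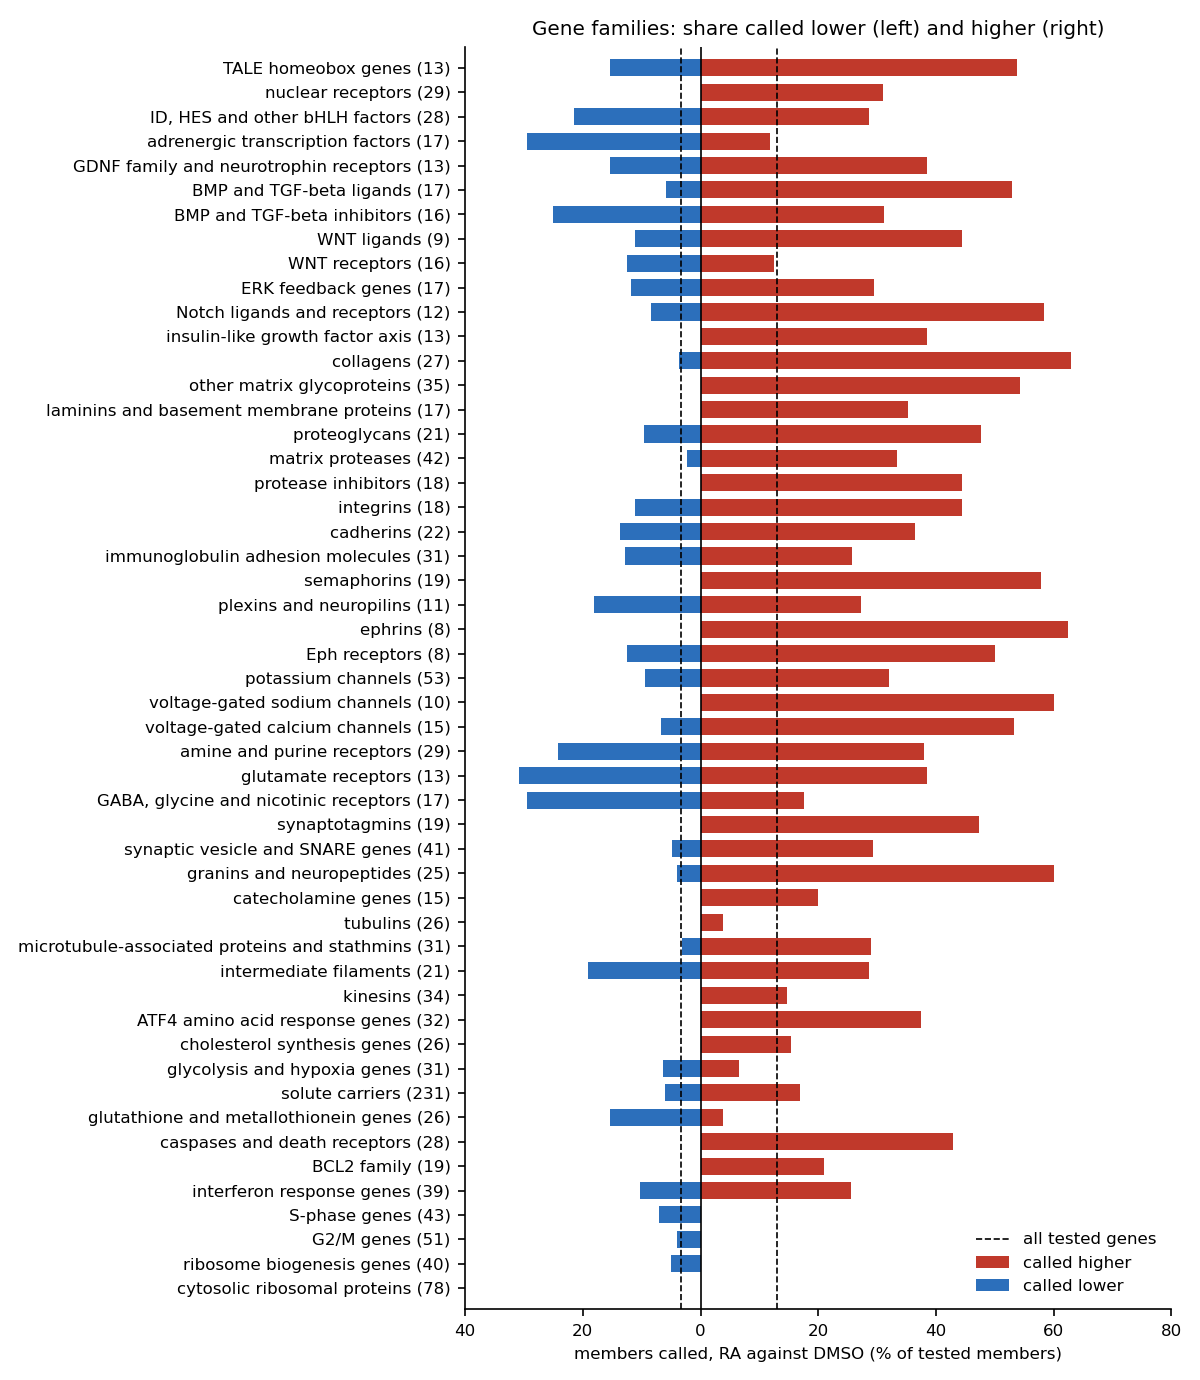
Share of tested members of each gene family called higher (red, right) and lower (blue, left) in RA against DMSO, in percent of tested members, whose number stands in brackets. The dashed lines mark 13% and 3.3%, the shares over all tested genes. Matrix, guidance, channel and neuropeptide families reach far beyond the right line, adrenergic factors and transmitter receptors beyond the left one, and the 4 cell cycle and ribosome lists have no red bar.

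Among transcription factors, some nuclear receptors and TALE homeobox genes rose and part of the adrenergic set fell. Of 29 nuclear receptors tested, 9 rose (NR0B1, NR4A3, RARB, NR4A2, PPARG, RARA, NR2F1, NR3C1 and PPARD), 31.0% against 13% of all genes, and 20 were not called, with a median of 0.12. RARA and RARB are known targets of retinoic acid. NR0B1, the orphan receptor DAX1, lay at 0.284, 0.245, 0.285 and 0.852 CPM in DMSO and 2.17, 2.79, 9.08 and 8.74 CPM in RA (log2 3.81 ± 0.32, adjusted p 5.29e-08), and the rise was larger in replicates 3 and 4 (3.98) than in replicates 1 and 2 (3.18). Of 13 TALE genes, which encode cofactors of HOX proteins and the Iroquois factors, 7 rose (among them MEIS1, IRX3, TGIF1, PBX3, MEIS2 and PBX2), 53.8% against 13% of all genes. IRX6 and IRX5 fell (15.4% against 3.3%). MEIS1 went from 29.9 ± 3.39 to 66.7 ± 9.92 CPM (log2 1.15 ± 0.06, adjusted p 1.38e-12), IRX3 from 3.08 ± 0.397 to 5.82 ± 0.795 CPM (log2 0.88 ± 0.17, adjusted p 0.000238) and IRX6 in the opposite direction, from 19.9 ± 1.75 to 7.38 ± 1.31 CPM (log2 -1.44 ± 0.08, adjusted p 2.31e-11). Members of the Iroquois family were thus called in both directions.

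Of the 17 adrenergic factors, 5 fell (29.4% against 3.3% of all genes) and 2 rose (11.8% against 13%). HAND1, a bHLH factor of the sympathetic lineage, went from 342 ± 40.4 to 134 ± 26.2 CPM (log2 -1.37 ± 0.09, adjusted p 8.79e-09), LMO1 from 1.61 ± 0.3801 to 0.728 ± 0.202 CPM (log2 -1.15 ± 0.19, adjusted p 4.85e-05), GATA3 from 107 ± 24.9 to 58.1 ± 12.4 CPM (log2 -0.89 ± 0.11, adjusted p 2.2e-05) and SIX3 from 26.7 ± 1.82 to 14.7 ± 1.11 CPM (log2 -0.86 ± 0.10, adjusted p 8.99e-07). INSM1 and SOX11 rose. INSM1 lay at 0.284, 1.304, 0.316 and 0.542 CPM in DMSO and 0.901, 2.67, 1.43 and 0.991 CPM in RA (log2 1.33 ± 0.39, adjusted p 0.0092), with overlap between the groups, and was not called without the replicate block (1.32, adjusted p 0.0828) or in replicates 1 and 2 alone (1.18, adjusted p 0.0833). SOX11 (log2 0.56 ± 0.05, adjusted p 2.75e-08) was under the fold minimum without RA replicate 3 (0.49), with replicates 1 and 2 only (0.48) and when GC content and length were corrected for (0.42), and its groups overlapped.

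Other factor families were mixed. In the list of 28 bHLH and ID genes, 8 rose (NEUROG2, BHLHE41, NHLH1, TAL1, BHLHE40, HEY1, TAL2 and LYL1), 28.6% against 13% of all genes, and 6 fell (among them HAND1, ID2, ID4, ATOH8 and ID3), 21.4% against 3.3%. BHLHE40, a repressor of the circadian system, went from 40.97 ± 2.803 to 92.1 ± 3.09 CPM (log2 1.16 ± 0.06, adjusted p 2.55e-12) and HEY1, a target of Notch, from 63.3 ± 9.11 to 142 ± 26.1 CPM (log2 1.15 ± 0.12, adjusted p 7.02e-06). The fallen members included ID2, ID3 and ID4, which bind bHLH factors and keep them off DNA. Of 10 SOX genes, 4 rose (SOX8, SOX4, SOX9 and SOX11), 40% against 13% of all genes. SOX18 fell (10% against 3.3%), with a further fall called without PB or PB+RA replicate 4. SOX4, which marks immature neurons, went from 378 ± 65.9 to 790.0 ± 77.9 CPM (log2 1.06 ± 0.05, adjusted p 4.23e-13) and SOX18, known from endothelium, from 45.3 ± 5.78 to 22.3 ± 3.6997 CPM (log2 -1.04 ± 0.07, adjusted p 8.8e-11). EGR3, an early growth response factor, went from 3.09 ± 1.32 to 9.699 ± 1.93 CPM (log2 1.64 ± 0.21, adjusted p 1.38e-05), and ETS1 from 19.5 ± 6.58 to 50.1 ± 12.4 CPM (log2 1.37 ± 0.10, adjusted p 8.66e-09). Within the Krüppel-like family KLF12 rose (log2 0.90 ± 0.10, adjusted p 3.58e-07) and KLF15 fell (log2 -1.21 ± 0.11, adjusted p 2.14e-08).

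Secreted signals and the proteins that gate them were called more often than genes at large in most lists. Among BMP and TGF-beta ligands, 9 of 17 rose (INHBA, GDF15, INHBE, BMP4, TGFB2, LEFTY2, GDF7, BMP6 and GDF6), with a median over the tested members of 0.77 against 0.01 over all genes. The median ranged from 0.16 to 0.94 over the alternatives. The groups did not overlap for 4 of the 9, against 1506 of all 2007 risen genes (75.0%). TGFB3 fell, but was not called without the replicate block or without DMSO replicate 2, 3 or 4 or RA replicate 1 or 2. The risen ligands were low, and at a minimum of 10 CPM over the 16 samples 0 remained to be called. INHBE, which encodes the beta subunit of activin E, lay at 0.851, 1.02, 0.949 and 0.735 CPM in DMSO and 4.59, 11.5, 7.91 and 5.32 CPM in RA (log2 2.98 ± 0.18, adjusted p 3.05e-11). Among the proteins that bind or inhibit these ligands, 5 of 16 rose (31.25% against 13% of all genes) and 4 fell (25% against 3.3%). The risen ones were the latent TGF-beta binding proteins LTBP1, LTBP2 and LTBP3 and the follistatin-like FSTL3 and FSTL1, and the fallen ones included CHRD and BMPER, which bind BMPs outside the cell, and SMAD6, which acts inside it. LTBP1, which tethers latent TGF-beta to the matrix, went from 8.799 ± 2.99 to 37.2 ± 6.18 CPM (log2 2.12 ± 0.19, adjusted p 1.84e-06) and LTBP2 from 4.43 ± 0.852 to 11.9 ± 1.72 CPM (log2 1.41 ± 0.11, adjusted p 2.65e-09). SMAD6, the inhibitory SMAD of the BMP branch, lay at 57.9, 35.5, 44.02 and 50.2 CPM in DMSO and 36.8, 21.6, 23.7 and 28.5 CPM in RA (log2 -0.78 ± 0.10, adjusted p 1.08e-05), lower in RA in each of the 4 replicate numbers although the groups overlapped. TGFBR2, the type II TGF-beta receptor, rose (log2 0.81 ± 0.10, adjusted p 6.57e-07).

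**Figure D3:**
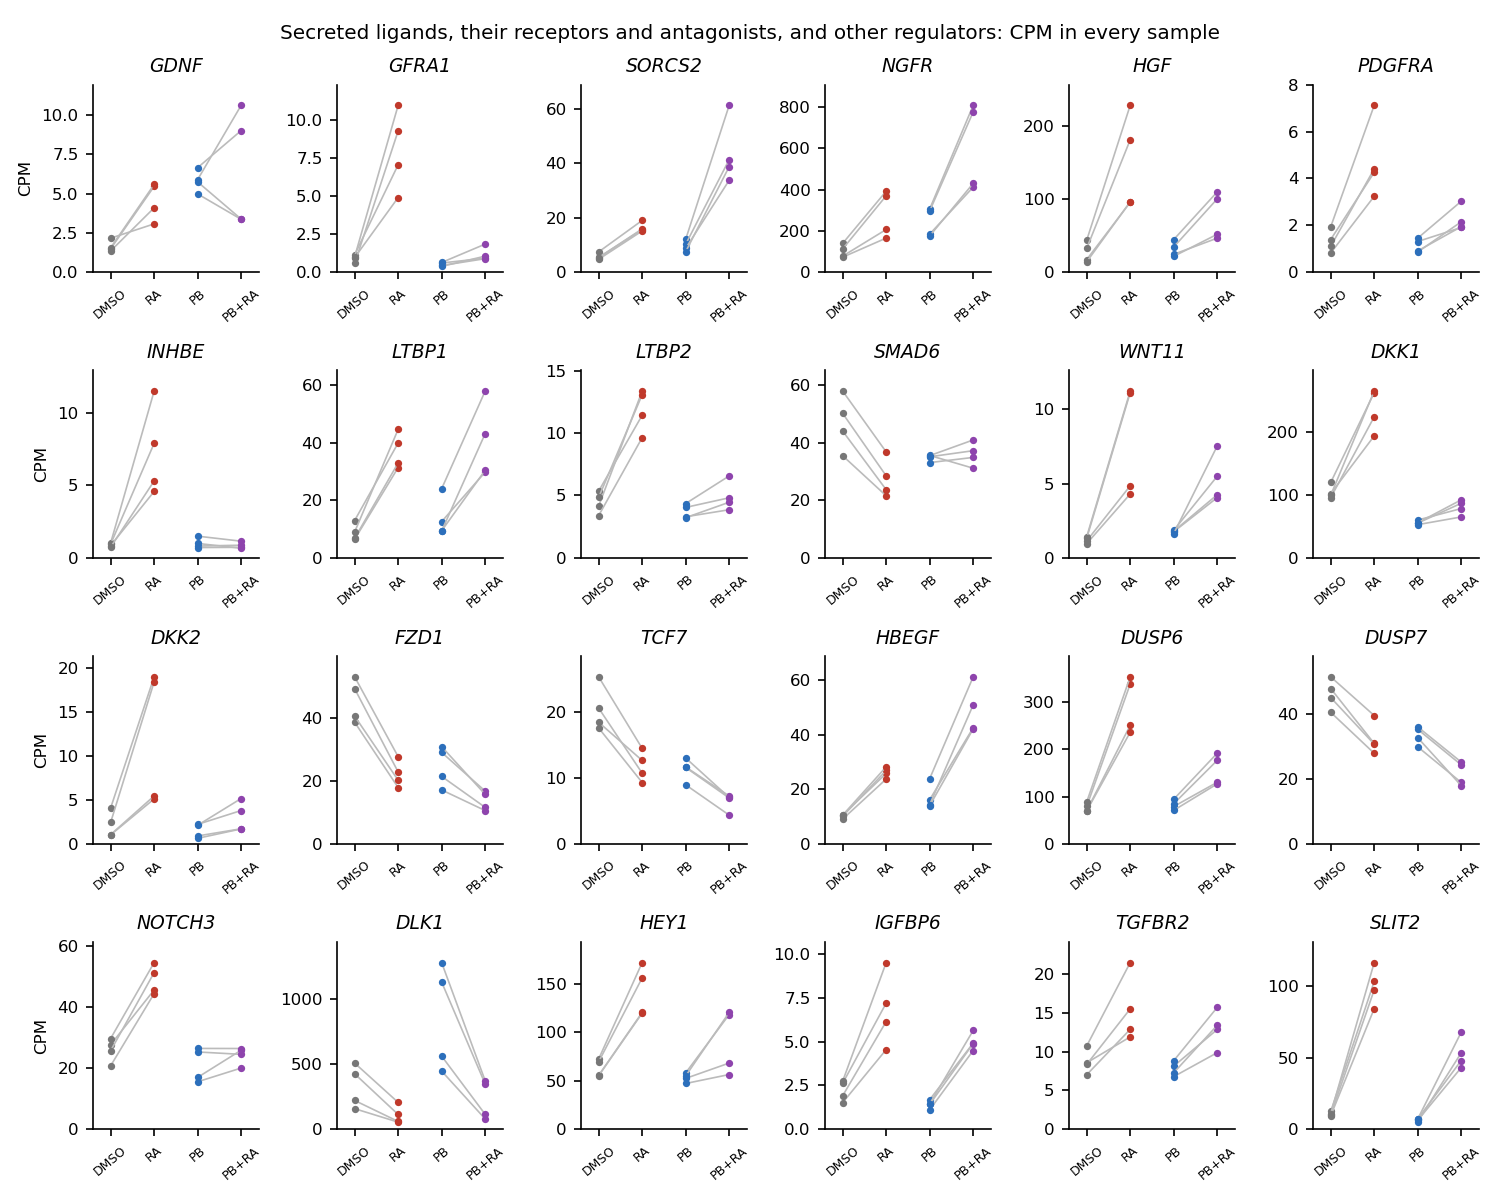
CPM in every sample for 24 genes of secreted signals, receptors, antagonists and downstream regulators, on linear axes from 0. Each point is 1 sample (grey DMSO, red RA, blue PB, purple PB+RA), and grey lines join samples of the same replicate number. In every panel the 4 lines from DMSO to RA point the same way, downward for SMAD6, FZD1, TCF7, DUSP7 and DLK1 and upward for the other genes.

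The receptors for GDNF family and neurotrophin ligands, which guide and sustain sympathetic and sensory neurons, were listed with ALK, a receptor of other ligands. In this list 5 of 13 rose (NTRK2, GFRA1, SORCS2, NGFR and GFRA3), 38.5% against 13% of all genes, and NTRK3 and ALK fell (15.4% against 3.3%). The number of falls was 1 in a fit of the 8 samples alone and in replicates 1 and 2 alone. GDNF itself lay at 1.35, 2.16, 1.49 and 1.55 CPM in DMSO and 4.095, 3.07, 5.46 and 5.59 CPM in RA (log2 1.46 ± 0.31, adjusted p 0.00133), and its binding receptor GFRA1 at 0.957, 1.14, 0.569 and 1.01 CPM in DMSO and 4.91, 7.08, 9.31 and 10.99 CPM in RA (log2 3.11 ± 0.20, adjusted p 1.06e-10). Both were low and their groups did not overlap. The rise of GFRA1 was smaller in replicates 1 and 2 alone (2.49). NGFR, the low-affinity neurotrophin receptor, was far more abundant, at 139, 112, 72.5 and 77.5 CPM in DMSO and 393, 370.2, 165 and 207 CPM in RA (log2 1.45 ± 0.07, adjusted p 1.28e-10), with replicates 1 and 2 above 3 and 4 in both groups. SORCS2, a sorting receptor for proneurotrophins, went from 5.702 ± 1.18 to 16.4 ± 1.75 CPM (log2 1.53 ± 0.09, adjusted p 5.44e-11). Other ligands and receptors of the tyrosine kinase class were called too. HGF, the ligand of MET, lay at 17.1, 14.1, 43.6 and 32.4 CPM in DMSO and 95.5, 96.03, 228 and 181 CPM in RA (log2 2.50 ± 0.08, adjusted p 1.91e-13), HBEGF, a ligand of the EGF receptor, went from 10.01 ± 0.6899 to 26.1 ± 1.901 CPM (log2 1.37 ± 0.11, adjusted p 7.54e-09), and PDGFRA from 1.31 ± 0.478 to 4.75 ± 1.66 CPM (log2 1.83 ± 0.16, adjusted p 7.94e-09). CSF1, the macrophage growth factor, fell from 17.1 ± 3.77 to 10.3 ± 2.38 CPM (log2 -0.74 ± 0.07, adjusted p 5.19e-08).

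In the WNT pathway ligands, receptors, antagonists and feedback targets were each called in both directions. Of 9 ligands, 4 rose (WNT11, WNT9A, WNT5B and WNT2B), 44.4% against 13% of all genes, and 2 in a fit of the 8 samples alone. At a mean of at least 10 CPM 0 ligands were called higher. WNT10A fell, but 0 ligands were called lower by DESeq2 or without the replicate block. WNT11, a ligand of the branch that does not act through beta-catenin, lay at 0.957, 1.14, 1.42 and 1.32 CPM in DMSO and 4.3003, 4.85, 11.2 and 11.1 CPM in RA (log2 2.64 ± 0.20, adjusted p 3.73e-09), with replicates 3 and 4 highest in both groups. DKK1 and DKK2, secreted antagonists that bind the WNT coreceptors, went from 104 ± 10.7 to 237 ± 34.05 CPM (log2 1.17 ± 0.08, adjusted p 2.57e-08) and from 2.11 ± 1.45 to 11.96 ± 7.75 CPM (log2 2.45 ± 0.15, adjusted p 4.42e-11). FZD1, a WNT receptor, went from 45.3 ± 6.902 to 22.1 ± 4.22 CPM (log2 -1.05 ± 0.07, adjusted p 1.67e-10) and TCF7, a factor of the beta-catenin branch, from 20.5 ± 3.48 to 11.8 ± 2.27 CPM (log2 -0.81 ± 0.09, adjusted p 5.82e-07), though SKP1 overlaps TCF7 on the other strand. Of 5 feedback targets of the pathway, 1 rose (AXIN2, without overlap between the groups) and 1 fell (TCF7). Among 10 antagonists 3 rose (DKK2, SFRP5 and DKK1) and KREMEN2 fell. The 16 receptors as a list had 2 rises and 2 falls, close to the 13% and above the 3.3% of all genes. The number of falls there was 1 without DMSO replicate 2 or without the replicate block and 4 without RA replicate 1.

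Of the 12 Notch ligands and receptors, 7 rose (NOTCH2, JAG1, DLL4, NOTCH3, DLL1, DLK2 and NOTCH1), 58.3% against 13% of all genes, and reads of NOTCH2 may be shared with a near-identical copy. At a mean of at least 10 CPM 1 member was called higher, and the median of the list ranged from -0.05 to 0.76 over the alternatives. NOTCH3 went from 26.01 ± 3.83 to 49.03 ± 4.79 CPM (log2 0.92 ± 0.09, adjusted p 6.61e-08). DLK1, a ligand that lacks the Notch activating domain, lay at 425, 507, 158 and 221 CPM in DMSO and 114, 206, 55.3 and 60.3 CPM in RA (log2 -1.64 ± 0.16, adjusted p 1.19e-05). It fell in each replicate number, the groups overlapped, and without the replicate block the change was not called (-1.60, adjusted p 0.0519). Of 17 genes that report or restrain ERK signalling, 5 rose (29.4% against 13% of all genes) and 2 fell (11.8% against 3.3%). DUSP6, the ERK phosphatase, lay at 69.9, 69.6, 79.1 and 88.4 CPM in DMSO and 251, 237, 339 and 354 CPM in RA (log2 1.92 ± 0.05, adjusted p 6.4e-16), whereas the related DUSP7 went from 46.2 ± 4.61 to 32.2 ± 5.05 CPM (log2 -0.53 ± 0.06, adjusted p 7.26e-07). In the insulin-like growth factor axis 5 of 13 rose (IGFBP6, IGFBP5, IGF2, IGFBP3 and IGF2R), among them the binding protein IGFBP6, from 2.203 ± 0.582 to 6.85 ± 2.08 CPM (log2 1.61 ± 0.14, adjusted p 8.59e-09).

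Extracellular matrix genes rose broadly. Of 27 collagens tested, 17 rose (63.0% against 13% of all genes), with a median of 0.66. They ranged from fibril-forming (COL1A1, COL3A1, COL5A1, COL5A2) over basement membrane (COL4A1, COL4A2, COL18A1) to microfibrillar (COL6A1, COL6A2, COL6A3) kinds. COL22A1, a collagen of tissue junctions, lay at 10.7, 14.4, 22.9 and 15.4 CPM in DMSO and 86.4, 117, 107 and 85.6 CPM in RA (log2 2.63 ± 0.22, adjusted p 3.26e-06) and COL26A1 went from 1.16 ± 0.259 to 10.4 ± 4.197 CPM (log2 3.13 ± 0.16, adjusted p 8.04e-12). The single fall was COL6A6 (a further collagen was called lower without DMSO replicate 2; log2 -0.77 ± 0.13, adjusted p 0.000193), whose groups overlapped and which was not called without the replicate block (-0.77, adjusted p 0.0613). Of 35 other matrix glycoproteins, 19 rose (54.3%, median 0.67): SLIT2, POSTN, FN1, MATN3, THBS1, CCN2, THBS2, TGFBI, VTN, CCN1, MFAP2, EDIL3, MFAP4, THBS4, TNC, THBS3, SLIT1, MATN2 and EFEMP2. FN1, fibronectin, lay at 199, 119, 152 and 231 CPM in DMSO and 762, 559, 680.3 and 932 CPM in RA (log2 2.07 ± 0.25, adjusted p 7.17e-05). SLIT2, a secreted ligand of ROBO receptors (chromosome 4, 20253528 to 20622184), lay at 12.4, 9.497, 10.1 and 10.9 CPM in DMSO and 103, 84.1, 97.1 and 116 CPM in RA (log2 3.21 ± 0.11, adjusted p 9.53e-13).

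Markers of the mesenchymal type of neuroblastoma cell were also examined. COL3A1, COL1A1 and FN1 belong both to these markers and to the matrix lists, so the lists are not independent of each other. The summed level of the 21 markers in the table was 2002 to 2282 CPM in DMSO and 2775 to 3282 CPM in RA. By its values given above, FN1 alone made up a large part of this increase. Of the 18 markers tested 8 rose (COL3A1, FN1, COL1A1, FOSL1, YAP1, NOTCH3, WWTR1 and TAGLN), while 7 had a value below 0 and the median was 0.22. By adjusted p alone 10 were higher and 3 lower. TWIST2 was at 0 in both groups and PRRX1 was not analysed here. Of Schwann cell markers, SOX10 was at 0 in all 8 samples and the sum was 37.7 to 58.7 CPM in DMSO and 45.6 to 72.4 CPM in RA. The part of such cells or states in the matrix changes was not tested.

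Basement membrane, proteoglycan and matrix-modifying lists also held more rises than genes at large. Of 17 laminins and basement membrane proteins 6 rose (LAMA4, FREM1, LAMB3, NID2, NID1 and NTN4), a number that was 2 without the replicate block. LAMA4, the laminin chain of vessel walls, lay at 3.55, 3.63, 4.84 and 4.72 CPM in DMSO and 23.02, 21.3, 57.7 and 44.2 CPM in RA (log2 3.07 ± 0.25, adjusted p 1.71e-06), and FREM1, a basement membrane protein, went from 11.7 ± 4.42 to 39.8 ± 6.32 CPM (log2 1.78 ± 0.13, adjusted p 7.3e-08). Of 21 proteoglycans 10 rose (NCAN, SPOCK2, GPC5, GPC2, GPC3, SPOCK1, SDC3, CSPG5, VCAN and DCN) and CSPG4 and LUM fell. In replicates 1 and 2 alone 6 rose. SPOCK2 went from 3.91 ± 0.576 to 16.5 ± 4.24 CPM (log2 2.06 ± 0.12, adjusted p 6.39e-11), lumican (LUM) from 44.8 ± 14.3 to 22.1 ± 7.52 CPM (log2 -1.02 ± 0.10, adjusted p 2.5e-07) and CSPG4, also called NG2, from 13.2 ± 1.92 to 6.55 ± 2.94 CPM (log2 -1.06 ± 0.12, adjusted p 4.51e-07). ADAMTS14, which trims procollagens, lay at 1.596, 1.43, 3.79 and 2.79 CPM in DMSO and 27.8, 41.2, 24.9 and 24.9 CPM in RA (log2 3.59 ± 0.29, adjusted p 2.69e-06), and the rise was 4.48 in replicates 1 and 2 and 2.85 in replicates 3 and 4. It was 1 of 14 risen among 42 matrix proteases, with ADAMTS17 the only member that fell. PLAT, the tissue plasminogen activator, was abundant and went from 249 ± 24.3 to 678 ± 39.9 CPM (log2 1.43 ± 0.08, adjusted p 5.56e-10). Of the protease inhibitors 8 of 18 rose, with SERPINE2, an inhibitor of thrombin and plasminogen activators, from 9.61 ± 4.53 to 35.8 ± 10.1 CPM (log2 1.93 ± 0.09, adjusted p 1.08e-12) and SPINT1 from 1.94 ± 0.503 to 6.57 ± 0.753 CPM (log2 1.76 ± 0.13, adjusted p 9.16e-10). LOXL2, which crosslinks collagen, went from 29.3 ± 5.13 to 67.2 ± 12.4 CPM (log2 1.19 ± 0.16, adjusted p 5.42e-05).

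The receptors that hold cells to matrix and to each other changed in both directions. Of 18 integrins 8 rose (ITGA4, ITGA3, ITGA5, ITGA1, ITGA2, ITGB3, ITGB8 and ITGB5), 44.4% against 13% of all genes, and ITGA9 and ITGA8 fell (11.1% against 3.3%). ITGA3, a laminin-binding chain, lay at 9.397, 10.1, 12.6 and 12.2 CPM in DMSO and 52.95, 57.9, 62.5 and 65.1 CPM in RA (log2 2.42 ± 0.06, adjusted p 1.36e-16), and ITGA1, a collagen-binding chain and the more abundant, at 267, 266, 335 and 333 CPM in DMSO and 867, 768, 896 and 902 CPM in RA (log2 1.52 ± 0.06, adjusted p 4.85e-12). Neither gene showed overlap between the groups. Of 22 cadherins 8 rose (CDH23, CDH3, CDH5, CDH20, DCHS1, CDH6, CLSTN3 and FAT4), 36.4% against 13% of all genes, and 5 in replicates 3 and 4 alone. Another 3 fell (CDH18, CDH10 and CDH24), 13.6% against 3.3%, and 1 without DMSO replicate 4 or RA replicate 1. DCHS1, a large cadherin of planar polarity, went from 25.01 ± 3.11 to 70.2 ± 5.16 CPM (log2 1.49 ± 0.11, adjusted p 6.93e-08). Among protocadherins outside the clusters PCDH9 fell (log2 -1.03 ± 0.06, adjusted p 7.67e-12). Of 31 immunoglobulin adhesion molecules 8 rose (CADM3, NCAM2, CADM4, LSAMP, CNTN4, BCAM, ICAM2 and CNTN2), 25.8% against 13% of all genes, and 5 with GC content and length corrected for. Another 4 fell (12.9% against 3.3%), 2 without the replicate block. NCAM2, a neural adhesion molecule of olfactory axons, went from 16.3 ± 4.24 to 65.4 ± 16.7 CPM (log2 2.00 ± 0.06, adjusted p 1.1e-15) and CADM3 from 0.8496 ± 0.519 to 5.18 ± 2.43 CPM (log2 2.60 ± 0.16, adjusted p 5.96e-11).

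Axon guidance ligands rose in large part, and their receptors were called in both directions. Of 19 semaphorins 11 rose (57.9%; SEMA6B, SEMA6C, SEMA3C, SEMA3B, SEMA3A, SEMA3G, SEMA4F, SEMA4G, SEMA4C, SEMA6D and SEMA5B), with a median of 0.57. SEMA3C, a secreted class 3 semaphorin, lay at 7.73, 10.8, 12.2 and 14.9 CPM in DMSO and 19.4, 20.6, 36.5 and 38.7 CPM in RA (log2 1.31 ± 0.16, adjusted p 1.91e-05) and the transmembrane SEMA6C went from 3.899 ± 0.548 to 9.99 ± 2.01 CPM (log2 1.34 ± 0.12, adjusted p 2.35e-08). Of the 11 plexins and neuropilins that receive them, PLXNB1, PLXNA2 and PLXNB3 rose and both neuropilins fell. PLXNB1 went from 42.6 ± 7.72 to 95.995 ± 14.1 CPM (log2 1.17 ± 0.07, adjusted p 9e-11) and NRP1 from 214 ± 16.6 to 139 ± 21.2 CPM (log2 -0.63 ± 0.06, adjusted p 4.05e-08). Of 8 ephrins 5 rose (EFNB2, EFNA4, EFNA2, EFNA3 and EFNA1), with EFNB2 from 61.8 ± 3.95 to 160.1 ± 24.4 CPM (log2 1.36 ± 0.07, adjusted p 1.08e-10). Of 8 Eph receptors 4 rose (EPHB3, EPHB2, EPHA2 and EPHB4) and EPHA5 fell. EPHB3 went from 28.01 ± 3.93 to 66.7 ± 6.17 CPM (log2 1.26 ± 0.09, adjusted p 2.89e-09) and EPHA5, which an antisense gene overlaps, from 21.6 ± 1.38 to 11.1 ± 0.596 CPM (log2 -0.98 ± 0.07, adjusted p 8.79e-10).

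Among ion channels, voltage-gated sodium channel genes were called higher more often than genes at large, and potassium channel genes were called more often in both directions. Of 10 sodium channel genes 6 rose (among them SCN4A, SCN2A, SCN2B, SCN3A and SCN8A), with a median of 0.99. SCN3A, of the embryonic brain, lay at 8.01, 6.15, 10.7 and 12.3 CPM in DMSO and 16.5, 12.9, 27.02 and 22.5 CPM in RA (log2 1.08 ± 0.08, adjusted p 1.68e-09). Of 15 calcium channel genes 8 rose (CACNA1I, CACNG8, CACNA1C, CACNG7, CACNA1H, CACNA1B, CACNB1 and CACNB3) and the auxiliary subunit CACNA2D2 fell. CACNA1H, a low-voltage T-type channel, went from 28.6 ± 8.72 to 66.1 ± 18.1 CPM (log2 1.22 ± 0.06, adjusted p 4.85e-12) and CACNA2D2 from 41.1 ± 3.25 to 25.8 ± 2.78 CPM (log2 -0.68 ± 0.11, adjusted p 0.000171). Of 53 potassium channel genes 17 rose (among them KCNK2, KCNMB4, KCNN2, KCNN4, KCNJ11, KCNA2, KCNA3, KCNJ2, KCNK10, KCNN3, KCNMA1, KCNG1, KCNN1 and KCNIP4) and 5 fell (KCND3, KCNK7, KCNH5, KCNH6 and KCNK3), the latter 9.43% against 3.3% of all genes and 8 with GC content and length corrected for. KCNA3, a delayed rectifier, went from 38.02 ± 5.27 to 80.2 ± 6.62 CPM (log2 1.07 ± 0.07, adjusted p 5.95e-10), while KCND3, of the A-type current, went from 9.56 ± 3.32 to 2.87 ± 1.41 CPM (log2 -1.76 ± 0.12, adjusted p 2.69e-10), with DDX20 overlapping it on the other strand, and KCNK3, a leak channel sensitive to acid, from 99.8 ± 12.8 to 49.5 ± 9.63 CPM (log2 -1.02 ± 0.08, adjusted p 1.44e-08). TRPA1, the irritant receptor of sensory neurons, fell from 169 ± 26.3 to 89.5 ± 12.2 CPM (log2 -0.93 ± 0.13, adjusted p 7.56e-05).

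Receptors for transmitters were called in both directions, with rises above the background of 13% and falls well above that of 3.3%. Of 29 amine and purine receptors 11 rose (ADRA2A, CHRM3, HTR4, P2RX3, ADORA1, CHRM4, CHRM5, P2RY2, HTR2B, ADORA2B and HTR1E), 37.9% against 13% of all genes, and 6 in replicates 1 and 2 alone. Another 7 fell (24.1% against 3.3% of all genes): ADRA2B, HTR3A, ADRA2C, DRD2, HTR3B, P2RX7 and CHRM1. The 3 alpha-2 adrenergic receptors split. ADRA2A lay at 3.65, 4.12, 2.44 and 3.75 CPM in DMSO and 9.95, 16.01, 5.05 and 8.29 CPM in RA (log2 1.43 ± 0.14, adjusted p 6.58e-08), ADRA2C at 109.9, 96.5, 65.97 and 63.5 CPM in DMSO and 36.5, 31.7, 22.6 and 22.6 CPM in RA (log2 -1.57 ± 0.07, adjusted p 5.96e-13), and ADRA2B fell. ADRA2A rose and ADRA2C fell in every replicate number without overlap between the groups. CHRM3, a muscarinic receptor, rose from 16.1 ± 4.53 to 36.01 ± 7.49 CPM (log2 1.15 ± 0.10, adjusted p 1.51e-07). Among glutamate receptors 4 of 13 fell (GRIK3, GRIN3A, GRID1 and GRIA4), 30.8% against 3.3% of all genes, and 5 rose, 38.5% against 13%. The number of rises was 3 without the replicate block and 1 in replicates 1 and 2 alone, and the groups overlapped for each of the 5. Among GABA, glycine, nicotinic and ionotropic serotonin receptors 5 of 17 fell (among them HTR3A, GABRG3 and HTR3B), 29.4% against 3.3%, and 3 rose (CHRNA6, GABRP and CHRNA9), 17.6% against 13%. HTR3A and HTR3B also stand among the amine and purine receptors, so these lists are not independent of each other.

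On the secretory side many peptide genes and members of the synaptotagmin family rose, and single release proteins fell. Of 25 granin and neuropeptide genes 15 rose (60.0%, median 0.74): CALCA, CARTPT, CALCB, EDN1, PTHLH, NPPB, STC2, GAL, CPE, NPPC, VGF, VIP, NPY, PCSK1N and CHGB. STC2, a secreted hormone also induced by amino acid stress, went from 8.82 ± 3.15 to 24.8 ± 8.95 CPM (log2 1.47 ± 0.11, adjusted p 6.77e-09) and the vasoconstrictor EDN1 from 3.08 ± 1.18 to 10.1 ± 5.28 CPM (log2 1.66 ± 0.18, adjusted p 6.66e-07). CRH, which releases corticotropin, was the single fall (a further one was called without DMSO replicate 2), at 689, 443, 791 and 722 CPM in DMSO and 524, 295, 529.5 and 509 CPM in RA (log2 -0.52 ± 0.09, adjusted p 0.000232). The CRH groups overlapped, and the gene was not called without the replicate block (-0.52, adjusted p 0.0938), without RA replicate 2 (-0.47) or in replicates 1 and 2 alone (-0.49). Of 19 synaptotagmins, the calcium sensors of exocytosis and their relatives, 9 rose (SYT17, SYT4, SYT13, SYT16, SYT12, SYT5, SYT2, SYT11 and SYT3). SYT4 lay at 30.4, 38.2, 57.9 and 54.2 CPM in DMSO and 118, 134, 185 and 175 CPM in RA (log2 1.77 ± 0.06, adjusted p 1.19e-14) and SYT17 went from 3.199 ± 1.29 to 10.997 ± 4.44 CPM (log2 1.77 ± 0.12, adjusted p 5.27e-10). Of 41 synaptic vesicle and SNARE genes 12 rose, among them SNCG, gamma-synuclein, from 52.7 ± 7.74 to 124 ± 13.96 CPM (log2 1.23 ± 0.07, adjusted p 4.3e-10), and RPH3A and CPLX2 fell, joined by 2 further genes without RA replicate 2. Complexin 2 (CPLX2), a brake and clamp of vesicle fusion, was abundant, at 779.8, 796, 659.8 and 669.9 CPM in DMSO and 506, 514, 453 and 396 CPM in RA (log2 -0.65 ± 0.05, adjusted p 9.53e-10).

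In catecholamine synthesis the enzymes of the first and the last step rose. PNMT, which turns noradrenaline into adrenaline, lay at 1.56, 3.14, 3.61 and 2.3998 CPM in DMSO and 17.7, 27.3, 17.2 and 14.4 CPM in RA (log2 2.80 ± 0.27, adjusted p 5.94e-06). TH, the rate-limiting enzyme, went from 85.9 ± 12.96 to 198 ± 29.2 CPM (log2 1.19 ± 0.15, adjusted p 6.14e-05), and DBH was the third of 3 risen among 15 (20% against 13% of all genes). ACHE, the enzyme that breaks down acetylcholine, went from 4.38 ± 0.401 to 14.2 ± 1.77 CPM (log2 1.69 ± 0.12, adjusted p 5.12e-10). No overlap between groups was seen in PNMT, TH or ACHE.

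In the cytoskeleton several microtubule-binding proteins rose, and 1 tubulin did. Of 31 microtubule-associated proteins and stathmins 9 rose (DCX, STMN4, DCLK1, MAP6, DPYSL3, DPYSL4, MAPT, TPPP3 and DCLK2), 29.0% against 13% of all genes. DCX, doublecortin of migrating neurons, lay at 18.1, 14.5, 17.4 and 16.4 CPM in DMSO and 76.4, 73.3, 89.04 and 81.2 CPM in RA (log2 2.26 ± 0.08, adjusted p 2.75e-14) and STMN4 went from 8.56 ± 1.397 to 34.2 ± 1.43 CPM (log2 2.00 ± 0.09, adjusted p 1.14e-12). TUBB4A was the 1 of 26 tubulins that rose, from 23.5 ± 4.58 to 55.4 ± 8.47 CPM (log2 1.24 ± 0.06, adjusted p 3.04e-12), and the tubulin median was -0.13. Of 34 kinesins 5 rose (KIF5C, KIF5A, KIF13A, KIF3C and KIF13B), 14.7% against 13% of all genes, with KIF5C from 41.1 ± 5.07 to 84.2 ± 11.7 CPM (log2 1.03 ± 0.05, adjusted p 1.65e-12). By adjusted p alone 9 kinesins were higher and 12 lower. TAGLN3, a neuronal relative of transgelin, lay at 13.5, 14.9, 10.4 and 8.83 CPM in DMSO and 67.04, 80.1, 43.1 and 43.3 CPM in RA (log2 2.26 ± 0.07, adjusted p 1.1e-15) and NEBL, nebulette of the actin Z-disc, went from 1.04 ± 0.222 to 9.74 ± 2.54 CPM (log2 3.22 ± 0.13, adjusted p 1.05e-13). ARHGEF2, a microtubule-bound exchange factor of small GTPases, went from 24.6 ± 3.67 to 83.2 ± 16.4 CPM (log2 1.74 ± 0.06, adjusted p 7.26e-15). Intermediate filaments moved apart. Of 21 genes tested 6 rose (KRT18, KRT86, KRT7, KRT8, NES and KRT80) and 4 fell (NEFH, KRT19, GFAP and SYNM). Keratins were thus called in both directions. The simple epithelial keratins KRT18 (9.37 ± 1.59 to 41.3 ± 9.24 CPM; 2.12 ± 0.12) and KRT8 (4.75 ± 1.098 to 11.6 ± 2.18 CPM; 1.29 ± 0.10) rose, though these genes overlap each other on opposite strands, and NEFH, the heavy neurofilament, fell, at 731, 718, 403 and 447 CPM in DMSO and 365, 386, 223 and 213 CPM in RA (log2 -0.97 ± 0.05, adjusted p 1.3e-12).

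In metabolism and stress CTSB, the lysosomal protease cathepsin B, was abundant in both groups, at 1282, 1264, 1431 and 1310.3 CPM in DMSO and 4134, 3459, 3734 and 4024 CPM in RA (log2 1.53 ± 0.06, adjusted p 2.55e-12). The share of risen genes in its list was near the background: of 41 lysosomal genes 5 rose (CTSB, NPC2, IDUA, CTSH and CTSK), 12.2% against 13% of all genes. NPC2, which hands cholesterol out of the lysosome, was 1 of these (log2 1.23 ± 0.12, adjusted p 6.94e-08), though ISCA2 overlaps it on the other strand. ABCA1, which exports cholesterol from the cell, rose too (log2 1.79 ± 0.14, adjusted p 1.97e-09). Of 32 genes of the ATF4 amino acid response 12 rose (GDF15, STC2, CHAC1, ASNS, WARS1, VLDLR, SLC6A9, TRIB3, DDIT4, ALDH1L2, SLC7A11 and SLC1A4), 37.5% against 13% of all genes. CHAC1, which degrades glutathione, went from 8.63 ± 0.768 to 22.9 ± 3.41 CPM (log2 1.39 ± 0.09, adjusted p 1.97e-10). Of 26 glutathione and metallothionein genes 4 fell (MT2A, HMOX1, GSTM2 and GCLM) and GPX8 rose, though not in the fit of the 8 samples alone or in replicates 1 and 2 alone. MT2A, a metal-binding protein, went from 7.07 ± 1.17 to 4.46 ± 0.816 CPM (log2 -0.68 ± 0.13, adjusted p 0.000233), and HMOX1, heme oxygenase, from 5.58 ± 0.437 to 3.78 ± 0.426 CPM (log2 -0.57 ± 0.13, adjusted p 0.000915), the latter not called without RA replicate 1 (-0.49). SMPD3, a neutral sphingomyelinase, went from 3.57 ± 0.402 to 12.6 ± 2.34 CPM (log2 1.82 ± 0.23, adjusted p 3.76e-05), with PRMT7 overlapping it on the other strand. CYP1A1, an enzyme of xenobiotic metabolism, went from 3.55 ± 0.287 to 8.17 ± 0.915 CPM (log2 1.20 ± 0.13, adjusted p 3.29e-07). Of 231 solute carriers 39 rose (16.9% against 13% of all genes) and 14 fell (6.06% against 3.3%).

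Of 28 death receptors and caspases 12 rose (TNFRSF9, NGFR, CASP6, TNFRSF25, TNFRSF19, TNFRSF10B, TNFRSF21, TNFRSF12A, TNFRSF1A, CASP10, CASP8 and FAS), 42.9% against 13% of all genes, and 8 did with GC content and length corrected for. CASP6, an executioner caspase, went from 4.84 ± 0.765 to 10.6 ± 2.42 CPM (log2 1.10 ± 0.12, adjusted p 1.67e-07), with MCUB overlapping it on the other strand. HRK, a BH3-only protein, went from 2.38 ± 0.544 to 5.91 ± 1.01 CPM (log2 1.31 ± 0.12, adjusted p 1.51e-08) and was 1 of 4 BCL2 family members that rose (HRK, BBC3, BOK and BMF) of 19 tested (21.1% against 13%). At a mean of at least 10 CPM 2 members were called higher. Interferon response genes were mixed, with 10 of 39 higher (25.6% against 13% of all genes) and 4 lower (10.3% against 3.3%). IRF9, a subunit of the interferon-activated factor ISGF3, went from 10.7 ± 1.95 to 18.2 ± 2.85 CPM (log2 0.76 ± 0.07, adjusted p 3.17e-08), OAS3, a sensor of double-stranded RNA, from 92.6 ± 4.25 to 52.9 ± 3.24 CPM (log2 -0.82 ± 0.13, adjusted p 0.000235), and NLRC5, an activator of MHC class I genes, from 25.4 ± 0.655 to 15.3 ± 2.37 CPM (log2 -0.75 ± 0.08, adjusted p 1.01e-07).

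Cell cycle and ribosome genes lay lower in RA by small amounts across nearly whole lists. All 43 S-phase genes lay lower in RA, with a median of -0.36, and 35 of them passed the adjusted p alone against 23.6% of all genes, but 3 passed the fold minimum (CCNE2, E2F8 and TIPIN). Of 51 G2/M genes 50 lay lower (median -0.31), 40 passed the adjusted p alone, and HMGB2 and BIRC5 passed the fold minimum. Of 40 ribosome biogenesis genes 38 lay lower (median -0.24), 34 passed the adjusted p alone, and LYAR and NOC2L passed the fold minimum. All 78 cytosolic ribosomal protein genes lay lower (median -0.21) and 69 passed the adjusted p alone, but 0 were called in edgeR, DESeq2 or limma-voom, and 73 had an unadjusted p below 0.05. The 1 gene that lay beyond the fold minimum did not pass the adjusted p. Without RA replicate 1 the number called was 1, and with replicates 3 and 4 only or with GC content and length corrected for it was 2. The medians were below 0 in each of 26 other fits, in which they ranged from -0.45 to -0.32, from -0.39 to -0.26, from -0.30 to -0.21 and from -0.29 to -0.17 in this order.

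The numbers that pass the fold minimum in these lists are not stable. For S-phase genes the number was 11 without RA replicate 1, 6 without DMSO replicate 3, 5 without DMSO replicate 4 or RA replicate 2, 15 in replicates 3 and 4 alone and 9 with GC content and length corrected for. For G2/M genes it was 0 without RA replicate 3 or 4, 4 without DMSO replicate 3 or 4, and 5 without RA replicate 1 or 2. CCNE2, a cyclin of S-phase entry, went from 31.5 ± 1.38 to 19.9 ± 0.792 CPM (log2 -0.67 ± 0.10, adjusted p 1.05e-05), with INTS8 overlapping it on the other strand, and E2F8, a repressor of the E2F family, from 9.77 ± 0.552 to 6.55 ± 0.517 CPM (log2 -0.59 ± 0.15, adjusted p 0.00383), not called without the replicate block (-0.58, adjusted p 0.0837). BIRC5, survivin (171 ± 9.52 to 121 ± 3.08 CPM; -0.50 ± 0.08), was not called without DMSO replicate 1 (-0.49) or RA replicate 3 (-0.48) or 4 (-0.46). HMGB2, a chromatin protein (418 ± 45.7 to 291 ± 16.3 CPM; -0.52 ± 0.12), was not called without RA replicate 3 (-0.48) or 4 (-0.47). LYAR (51.4 ± 0.638 to 36.1 ± 2.04 CPM; -0.52 ± 0.05) and NOC2L (287 ± 21.4 to 203 ± 19.6 CPM; -0.51 ± 0.05), both nucleolar proteins, were not called in replicates 1 and 2 alone (-0.47 and -0.48), and SAMD11 overlaps NOC2L on the other strand. Of 8 CDK inhibitor genes CDKN1A (p21) and CDKN2B (p15) rose (25% against 13% of all genes) and 0 fell by edgeR, with 3 lower at an unadjusted p under 0.05. CDKN3, a phosphatase that acts on CDKs, fell just short of the fold minimum and was called lower by DESeq2, with RLE size factors, without the filter, in replicates 3 and 4 alone and in most fits that left out 1 sample, but not by limma-voom. CDKN1A lay at 39.6, 38.2, 35.2 and 34.7 CPM in DMSO and 96.98, 119, 85.2 and 82.5 CPM in RA (log2 1.35 ± 0.07, adjusted p 1.04e-11) and CDKN2B went from 9.02 ± 0.878 to 14.7 ± 2.25 CPM (log2 0.69 ± 0.10, adjusted p 1.12e-05).

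**Figure D4:**
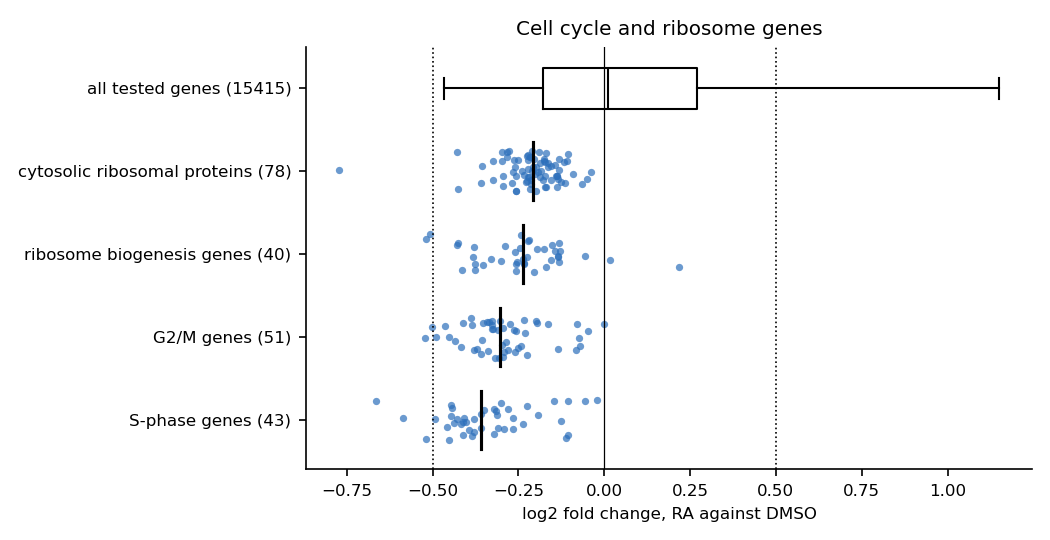
Log2 fold changes, RA against DMSO, of every tested member (points) of 4 cell cycle and ribosome lists, with the median of each list as a black line. The box at the top gives the quartiles and the median of all 15415 tested genes, with whiskers at the 5th and 95th percentiles, and dotted lines mark the fold minimum of 0.5. Nearly all points lie left of 0 and right of the left dotted line.

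The RA effect was measured again in the 8 samples that also held PB, which share no sample with the comparison of RA and DMSO but carry the same replicate numbers. PB+RA against PB raised 1649 genes (10.7% of those tested) and lowered 1279 (8.3%). Of the 2007 genes raised by RA alone, 1139 were raised there too, which is 56.8% of the former and 69.1% of the latter, and 31 were lowered. Of the 509 lowered by RA alone, 329 were lowered there too (64.6% and 25.7%), and 3 were raised. The sign was shared by 90.7% of the risen and 94.1% of the fallen genes. The difference between both RA effects was itself tested. It was called below 0, meaning a smaller rise or a larger fall with PB, for 981 genes (6.36%), and above 0 for 190 (1.23%). Of the 2007 risen genes 408 were below and 31 above, and of the 509 fallen ones 65 were below and 42 above.

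For several of the largest changes no difference was called with PB present, which does not show that the effects were equal. CDH23 lay at 4.03, 2.66, 2.04 and 2.49 CPM in PB and 171, 144, 103 and 127 CPM in PB+RA (log2 5.57 ± 0.11, difference 0.62 ± 0.22, adjusted p 0.0651). SLIT2 rose by 2.99 ± 0.12, ADAMTS14 by 3.82 ± 0.24 and CFI by 3.96 ± 0.13, and the difference was not called for these genes or for CDH23. RPH3A fell by a similar amount with PB (log2 -2.39 ± 0.19). In other genes the RA effect differed with PB, among them GJA5, whose rise was smaller (difference -0.95). The 4 called genes that averaged 10 CPM or more and lay furthest below were LAMA4 (log2 0.60 ± 0.20 with PB, difference -2.46 ± 0.32, adjusted p 0.000425), SEMA3A, LINC02458 (difference -2.12 ± 0.19, adjusted p 1.18e-06) and TAGLN3 (log2 0.31 ± 0.06 with PB, difference -1.95 ± 0.09, adjusted p 2.48e-11). SEMA3A, which repels axons, lay at 9.72, 9.25, 17.6 and 22.4 CPM in DMSO and 12.7, 19.6, 48.5 and 38.6 CPM in RA (log2 0.97 ± 0.17, adjusted p 0.000583) and fell with PB (20.98, 17.1, 29.7 and 38.6 CPM in PB and 8.15, 9.65, 13.2 and 17.8 CPM in PB+RA; log2 -1.16 ± 0.18), so that the direction turned. Its rise with RA alone was not called without the replicate block (1.01, adjusted p 0.0734). INHBE showed the same loss at a lower level, at 0.815, 1.4996, 0.713 and 0.996 CPM in PB and 0.875, 1.15, 0.727 and 0.666 CPM in PB+RA (difference -3.24 ± 0.31, adjusted p 8.54e-07), and a smaller rise was also seen in GFRA1 (difference -1.99 ± 0.40, adjusted p 0.00162). Some genes of the neuronal cytoskeleton and of secretion had smaller rises with PB, with differences of -1.46 ± 0.10 for DCX, -1.23 ± 0.11 for STMN4, -1.16 ± 0.09 for SYT4 and -1.41 ± 0.16 for STC2. In the S-phase list 24 of 43 differences and in the G2/M list 36 of 51 were called below 0, against 6.36% of all genes.

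The 4 furthest above were SLC6A19, PLSCR1, AQP1 and FGFRL1. SLC6A19, a neutral amino acid transporter of gut and kidney, was low, at 8.72, 5.299, 2.498 and 4.14 CPM in DMSO and 4.3003, 3.32, 1.02 and 1.62 CPM in RA (log2 -1.03 ± 0.24, adjusted p 0.00238), with overlap between the groups, and rose with PB (log2 1.03 ± 0.17, difference 2.06 ± 0.29, adjusted p 0.00024). Its fall with RA alone was not called without the replicate block (-1.01, adjusted p 0.104) or in replicates 1 and 2 alone (-0.91, adjusted p 0.138). PLSCR1, an interferon-inducible scramblase, rose by 0.58 ± 0.13 with RA alone and by 2.23 ± 0.15 with PB (difference 1.64 ± 0.20, adjusted p 2.63e-05), and the former was not called without DMSO replicate 1 (0.49) or 2 (0.45), without RA replicate 4 (0.47), without the replicate block (0.61, adjusted p 0.0779) or in replicates 3 and 4 alone (0.40). AQP1, a water channel, lay at 5.96, 7.87, 8.98 and 8.44 CPM in DMSO and 16.9, 35.6, 12.2 and 16.3 CPM in RA (log2 1.25 ± 0.27, adjusted p 0.00316), with RA replicate 2 well above the other samples, and rose by 2.60 ± 0.29 with PB (difference 1.35 ± 0.40, adjusted p 0.0453). Its rise with RA alone was 1.86 in replicates 1 and 2 and 0.63 in replicates 3 and 4, and was not called in a fit of the 8 samples alone (1.27, adjusted p 0.0552). FGFRL1, a receptor that binds FGFs but lacks a kinase domain, went from 14.6 ± 1.43 to 23.04 ± 2.13 CPM (log2 0.65 ± 0.09, adjusted p 3.71e-06) and rose by 1.92 ± 0.12 with PB (difference 1.27 ± 0.15, adjusted p 6.95e-06).

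**Figure D5:**
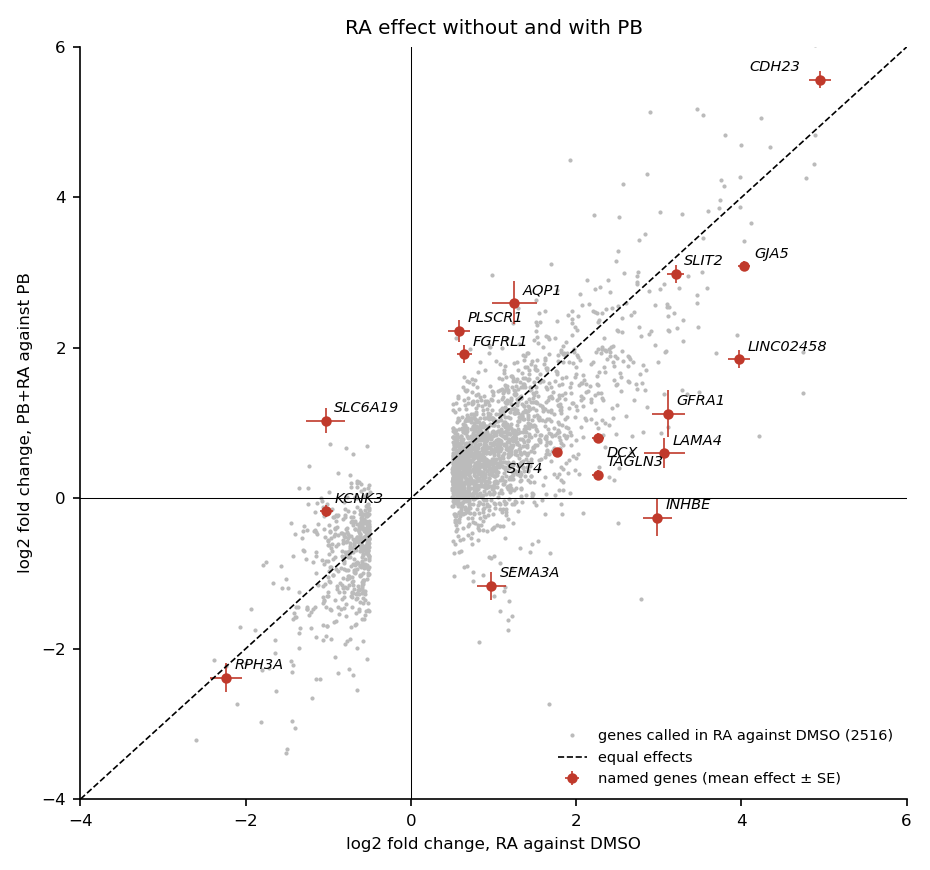
Log2 fold change of RA against DMSO (horizontal) and of PB+RA against PB (vertical) for the 2516 genes called in the former (grey) and for named genes (red, ± SE), with the dashed line where both are equal. 9 called genes lie outside the axes. CDH23, SLIT2 and RPH3A lie near the line, LAMA4, LINC02458, INHBE and TAGLN3 far below it, SEMA3A and SLC6A19 change sign, and AQP1, PLSCR1 and FGFRL1 lie above it.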

How the data were processed

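RNA from 16 samples of SK-N-BE(2)C cells was sequenced as paired-end polyA libraries from a directional kit. Per the labels, the submitters' processing notes name Trim Galore 0.6.4, STAR 2.6.1d, DESeq2 1.32.0 and the build hg19. The authors deposited whole-number counts per gene from STAR, and the annotation release and the strand column were not given in the sources used here. A table of CPM and a table of the authors' own fold changes and p-values were not used. No fold change or p of the authors entered the report. Totals per library limit the precision as given with the results, and floors cover counting error only.

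Counts were tested in R 4.3.3 with edgeR 4.0.16 (filterByExpr, TMM, robust quasi-likelihood fit of all 16 samples with group and replicate number as terms). The alternatives used DESeq2 1.42.0, limma 3.58.1 (voom), RLE factors, other filters, a correction for GC content and exon length (splines with 5 degrees of freedom, 95.2% of tested genes with values), no replicate block, and fits without each sample. Same-numbered samples deviated together from their group means in all 24 pairs (r 0.330 to 0.573, and 0.424 to 0.521 in the 4 pairs of RA and DMSO), and the study's methods describe replicates as separate passages and experiments, so the numbers were taken to pair the samples. Genes at opposite strands of 1 locus are uncertain because the strand of counting is unknown. On simulated counts of 15415 genes for RA against DMSO, with 200 genes changed, 66% were called at a log2 change of 0.6, 89% at 1 and 97% at 2. Of the unchanged genes 1, 2 and 4 were called in this order. The simulation held as many rises as falls and fewer changed genes than the 2516 called in the data, so these shares may not carry over.

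Genes named with values were the 12 largest rises and 12 largest falls (called, 10 CPM or more on average, no overlap), up to 2 rises and 2 falls per gene list at 3 CPM or more, members of the adrenergic factor and CDK inhibitor lists, and the 4 genes furthest above and below 0 in the difference between RA effects. BATF2, ZBED6 and the full sets of called list members were outside this rule, and some items are not reported here. The comparison and the 91 gene lists were chosen with earlier results of these data known. Gene coordinates are from GENCODE for GRCh37 and promoters from RefSeq.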

Additional observations from a re-analysis of the deposited data

Results flagged for a closer look

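A sample lay far from the other 3 of its group in 12 of the 288 groups of 4 examined (144 genes in DMSO and RA), by Dixon's test at 95%. Chance alone flags about 1 in 20 groups. The sample was high in DMSO for GJA5 (7.26 CPM, replicate 2), CFI (2.71 CPM, replicate 4), PLPPR4 (31.8 CPM, replicate 4), HAND1 (402 CPM, replicate 1), NR0B1 (0.852 CPM, replicate 4) and SOX18 (53.9 CPM, replicate 1), and low there for STMN4 (6.48 CPM, replicate 2) and HMOX1 (4.93 CPM, replicate 2). It was high in RA for RPH3A (7.95 CPM, replicate 1), KLF15 (6.79 CPM, replicate 2) and LYAR (39.2 CPM, replicate 2), and low in RA for CRH (295 CPM, replicate 2).

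For 61 of the 144 genes the effect of RA differed with and without PB by the test of the difference itself (edgeR, adjusted over all 15415 genes, beyond 0.5). The values are the log2 effect with PB minus that without it. The lowest were those of INHBE (-3.24), LAMA4 (-2.46), SEMA3A (-2.13), LINC02458 (-2.12), GFRA1 (-1.99), TAGLN3 (-1.95), DCX (-1.46), STC2 (-1.41), GDNF (-1.39), DKK2 (-1.38), PNMT (-1.27), HGF (-1.26), LMO1 (-1.25) and STMN4 (-1.23). Lower by 0.8 or more but less than 1.2 were SYT4 (-1.16), SPOCK2 (-1.11), WNT11 (-1.10), LTBP2 (-1.05), DUSP6 (-1.03), BIRC5 (-1.0002), CCNE2 (-0.999), NEBL (-0.95), GJA5 (-0.95), ARHGEF2 (-0.90), IRX6 (-0.87), HMGB2 (-0.87), EFNB2 (-0.87), CHRM3 (-0.86), PDGFRA (-0.86), LUM (-0.81) and KIF5C (-0.80). The remaining genes below 0 were TUBB4A (-0.79), NCAM2 (-0.77), TH (-0.76), NOTCH3 (-0.73), TRPA1 (-0.72), PLPPR4 (-0.71), KRT18 (-0.71), CHAC1 (-0.70), DKK1 (-0.68), HRK (-0.66), ACHE (-0.66), SCN3A (-0.63), CYP1A1 (-0.62), CSPG4 (-0.62), CACNA1H (-0.54), RERG (-0.54) and DCHS1 (-0.51). Above 0 lay SOX18 (0.53), DOK4 (0.54), SORCS2 (0.62), ADRA2C (0.66), HMOX1 (0.69), MT2A (0.69), SMAD6 (0.79), KCNK3 (0.85), KCND3 (0.91), FGFRL1 (1.27), AQP1 (1.35), PLSCR1 (1.64) and SLC6A19 (2.06). Some genes below 0, such as LMO1, IRX6 and LUM, fell with RA alone, and their fall was larger with PB.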

How the results depend on the processing

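The genes called higher and lower in RA against DMSO numbered 2007 and 509, and 1769 to 2022 and 507 to 593 when any 1 of the 16 samples was left out. For PB+RA against PB these ranges were 1571 to 1743 and 1195 to 1300, and for the difference between both effects 163 to 251 above 0 and 754 to 971 below. With no fold minimum the RA counts were 4094 and 3644, with a log2 minimum of 1 they were 927 and 111, and with a mean of at least 10 CPM they were 819 and 220. In the same order the counts with PB were 3666 and 4298, 732 and 424, and 663 and 672. The difference had 594, 61 and 92 genes above 0 and 1924, 302 and 554 below. Without the filter it had 287 above, with the GC and length correction 288, and with replicates 3 and 4 only 308. The replicate block, which uses the pairing of the numbers, moved the difference: without the replicate block it had 64 above and 466 below, and RA against DMSO then had 1661 higher, within 1.5 times of the paired count in both directions. The cause of these moves was not tested, apart from the fold minimum and the smaller number of genes that enter. DESeq2 gave 1776 and 536, limma-voom 2016 and 509. None of the 144 genes given with values changed direction in these alternatives, and their calls that rest on 1 sample or on the replicate block (8 of 144 were lost without the block) stand beside them in the report.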
